A study of Microhyla fissipes with 9 samples.

Results

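A group of 512 unigenes of the frog Microhyla fissipes kept nearly the same level in tadpoles with and without herbicide, after the libraries had been brought to a common scale. A unigene is a cluster of assembled transcripts that stands in for a gene where no genome was used. The 512 were chosen from the values of all 9 libraries, in which levels were given as FPKM (fragments per kilobase of transcript, relative to the fragments of the library). Each library was divided by its median-ratio size factor. This is the median, over unigenes above 0 in all 9 libraries, of the ratio to the unigene's geometric mean. Unigenes with a scaled mean of at least 20 FPKM were kept, and the 100 of highest mean were set aside, which left 11964 of the 426250 unigenes in the table. The 512 are those whose highest scaled value was at most 1.5 times the lowest, 4.28% of the 11964 and 0.120% of all unigenes. Because the 9 values chose them, their narrow range and small dose differences are described here without a test of their own.

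The samples were whole tissue of tadpoles of Gosner stage 30, when the hind limb is a bud, held for 10 days in water with a glyphosate-based herbicide (GBH). Doses were 0 (control), 60 and 90 mg/L with 3 libraries each, and the labels name the same agent at both doses. The design held 5 containers per dose with 20 tadpoles in 1000 mL of water each, and the labels tie no library to a container or a number of tadpoles. Replicate spread may therefore be technical in part.

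Cells hold some transcripts at a steady level because the products, such as parts of the ribosome, the cytoskeleton or the splicing machinery, are needed in every cell. Transcripts that stay level across treatments serve as reference genes, against which other transcripts are measured in quantitative PCR. Steadiness is always relative to a scale, since sequencing gives each transcript as a share of the library. The table pairs no unigene with a gene name or a sequence, so the 512 are given by identifier, and whether known reference genes are among them was not examined here. In whole tissue, fewer cells of a type and less RNA per cell cannot be told apart.

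The size factors of the control libraries were 0.899, 0.792 and 0.949. They were 1.08, 1.16 and 1.13 for the libraries of 60 mg/L, and 1.14, 1.11 and 1.12 for those of 90 mg/L, so every control lay below every exposed library. The 100 most abundant unigenes took up 29.9% ± 3.27, 26.2% ± 3.01 and 26.9% ± 2.53 of a library's FPKM sum (SD, n = 3 each, in order of dose). Relative depth was estimated from unigenes at 0.2 to 0.3 FPKM in control replicate 1, which was set to 1. For each other library it was the inverse of their most frequent FPKM ratio to control replicate 1. It ranged from 0.758 to 1.09. One library of each dose (control replicate 2, replicate 2 of 60 mg/L and replicate 3 of 90 mg/L) stood apart on the first principal component of all unigenes whose mean reached 1 FPKM, at 355, 218 and 141 against -153 to -59.2 for the other 6. They are called the 3 libraries apart.

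The levels of the stable unigenes covered most of the range from which they were drawn. Their scaled means ran from 20.0 to 3587 FPKM with a median of 45.9 and quartiles of 27.4 and 98.98 FPKM. Over all 11964 candidates the median was 39.6 FPKM. Between 20 and 30 FPKM the stable share was 3.75% (153 of 4076), between 100 and 200 FPKM it was 5.25% (66 of 1257), and at 500 FPKM or more it was 4.93% (23 of 467). The share thus lay between 3.75% and 5.25% in these 3 ranges, and 9 stable unigenes lay above 1000 FPKM. The median coefficient of variation over the 9 libraries was 11.3% at 20 to 30 FPKM and 12.2% at 500 FPKM or more. The rule limits this variation at every level, so no relation between level and variation is read from these values. Identifiers carry a component number before the point, and all 512 had 47276, the largest component. That component held 98.99% of the candidates and 78.7% of all unigenes.

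**Figure D1:**
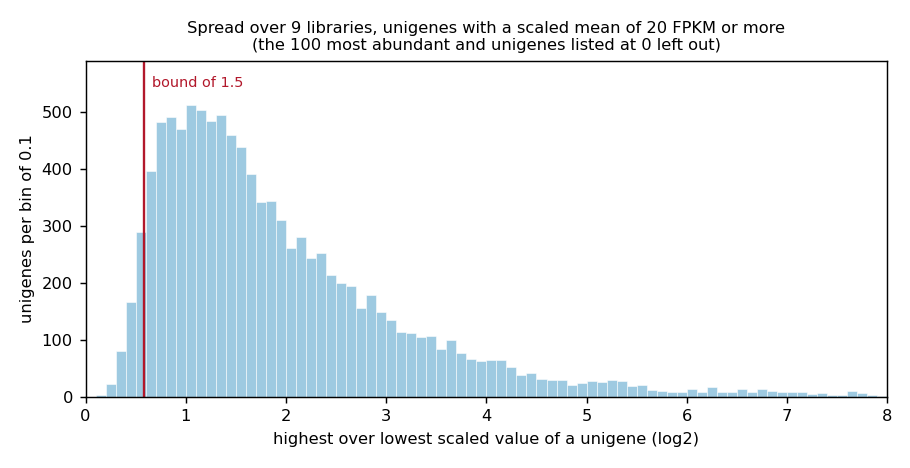
Histogram of the highest over the lowest scaled value of each unigene, on a log2 axis, for candidates above 0 in all 9 libraries, with the bound of 1.5 as a line. The 512 stable unigenes lie left of the line on the rising flank of a single hump, and 106 unigenes beyond 8 on the log2 axis are not drawn.

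The stable unigenes were the lower end of 1 continuous distribution. Among the 10622 candidates above 0 in all libraries, the median of the highest over the lowest value was 3.04, and a further 1342 candidates were listed at 0 in at least 1 library. Within the 512 the ratio ran from 1.11 to 1.4999 with a median of 1.41, and 276 of them (53.9%) lay above 1.4. A bound of 1.4 in place of 1.5 left 236 unigenes, and 358 lay between 1.5 and 1.6. The members nearest the bound were Cluster-47276.181482 at 1.4999 and Cluster-47276.179438 at 1.499, and the first unigenes beyond it were Cluster-47276.72113 at 1.5003 and Cluster-47276.185776 at 1.5013. No gap separates these pairs. Cluster-47276.185776, left out by so little, stood at 34.2 ± 2.92, 43.3 ± 0.626 and 45.6 ± 2.63 scaled FPKM (SD, n = 3 each, in order of dose). Its exposed libraries, at 42.7 to 48.6, all lay above its controls, at 32.3 to 37.6 scaled FPKM.

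The steadiest member by this measure was Cluster-47276.170340. Its scaled values were 51.4, 48.8 and 48.3 FPKM in the controls, 48.3, 50.7 and 51.1 FPKM at 60 mg/L and 49.8, 53.8 and 52.2 FPKM at 90 mg/L. The 3 groups overlapped, with log2 differences of 0.016 at 60 mg/L and 0.069 at 90 mg/L against control. Cluster-47276.161246 came next, with 271, 256 and 280 scaled FPKM in the controls, then 246, 260 and 261 at 60 mg/L and 260, 270 and 249 at 90 mg/L. Cluster-47276.130433 followed at 37.3, 34.2 and 38.7, then 36.03, 38.4 and 35.9, then 39.0, 35.0 and 38.5 scaled FPKM in the same order. In both, the highest and the lowest library belonged to different doses, and the exposed groups overlapped the controls. Only 11 unigenes had a ratio of at most 1.2, with scaled means from 21.2 to 338 FPKM. Their coefficients of variation were 3.69% to 6.76%, and their log2 differences from control were at most 0.13 in size at 60 mg/L and 0.14 at 90 mg/L.

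**Figure D2:**
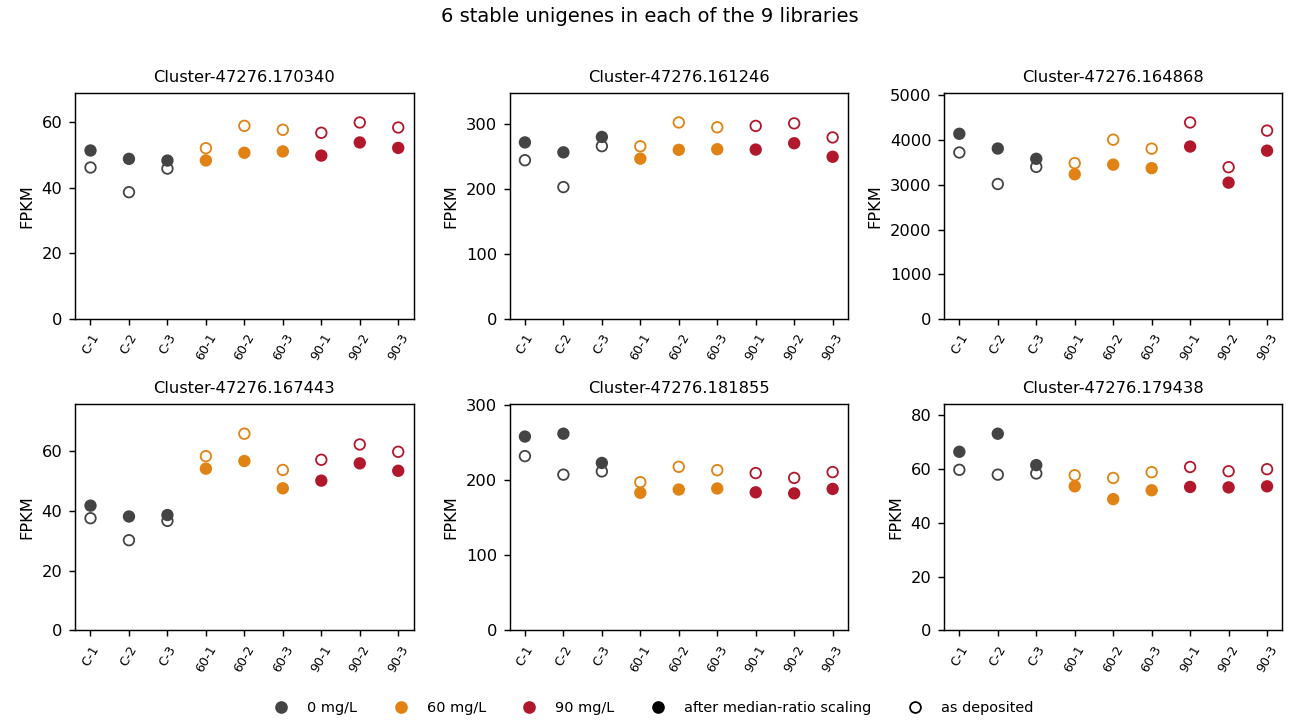
FPKM of 6 stable unigenes in each library (C, 60 and 90 give the dose in mg/L, then the replicate), filled points after median-ratio scaling and open points as deposited, coloured by dose. In Cluster-47276.170340 the scaled points run level while the deposited control points lie lowest, and in Cluster-47276.179438 the deposited points run level while the scaled control points lie highest.

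The most abundant member was Cluster-47276.164868, with 4143, 3814 and 3584 scaled FPKM in the controls. It stood at 3237, 3454 and 3375 scaled FPKM at 60 mg/L and at 3858, 3051 and 3766 at 90 mg/L. On this scale all 3 libraries at 60 mg/L lay below the controls, while those at 90 mg/L overlapped them. As deposited, the mean of Cluster-47276.164868 was 3383 FPKM in the controls and 3770 FPKM at 60 mg/L, with overlap. Cluster-47276.165204 had 2457, 2439 and 2426 scaled FPKM in the controls, then 2209, 1740 and 1891 at 60 mg/L and 2294, 2138 and 1843 at 90 mg/L. The SD of the controls was 15.7 scaled FPKM (n = 3), and all 6 exposed libraries were lower. As deposited, its controls stood at 2209, 1931 and 2303 FPKM (SD 194, n = 3) and were overlapped by the exposed libraries, at 2021 to 2614 FPKM. Cluster-47276.166791 stood at 1839 ± 212, 1677 ± 182 and 1689 ± 210 scaled FPKM (SD, n = 3 each, in order of dose), with overlapping groups. At the median level, Cluster-47276.171385 stood at 44.2 ± 6.99, 48.1 ± 4.06 and 45.4 ± 1.45 scaled FPKM (SD, n = 3 each). Its lowest value was control replicate 2 at 36.3 scaled FPKM, and the groups overlapped. At the lower limit of level, Cluster-47276.165935 stood at 20.4 ± 2.16, 19.7 ± 0.875 and 19.9 ± 2.87 scaled FPKM, and Cluster-47276.156542 at 22.4 ± 2.81, 19.9 ± 0.676 and 18.4 ± 1.52 (SD, n = 3 each, in order of dose). As deposited, all 6 exposed libraries of Cluster-47276.166791 lay above its controls, at 1711 to 2150 against 1494 to 1692 FPKM. The same held for Cluster-47276.171385 (48.76 to 55.99 against 28.74 to 44.66 FPKM) and Cluster-47276.165935 (19.89 to 25.68 against 17.36 to 18.32 FPKM). In Cluster-47276.156542 the deposited values at 60 mg/L lay above the controls and those at 90 mg/L overlapped them.

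The series asked what the herbicide does to tadpole transcripts, and for the stable unigenes the question is how little dose moved them. After scaling, their median log2 difference against control was -0.077 at 60 and -0.050 at 90 mg/L, and 0.032 between 90 and 60 mg/L. The middle 80% ran from -0.26 to 0.13 at 60 mg/L and from -0.24 to 0.17 at 90 mg/L. The full range was -0.41 to 0.42 and -0.47 to 0.43, which the bound of 1.5, 0.58 on the log2 scale, limits by construction. Dose means lay within 1.1-fold of control in 284 members (55.5%) at 60 mg/L and in 286 (55.9%) at 90 mg/L, and all 3 dose means lay within 1.1-fold of each other in 178. Among candidates above 0 in all libraries, 19.4% and 18.3% lay within 1.1-fold of control at 60 and 90 mg/L. The rule limits how far dose means can differ in a member, so nothing is read from the members' higher shares. The comparisons of 60 and of 90 mg/L with control share the control libraries.

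**Figure D3:**
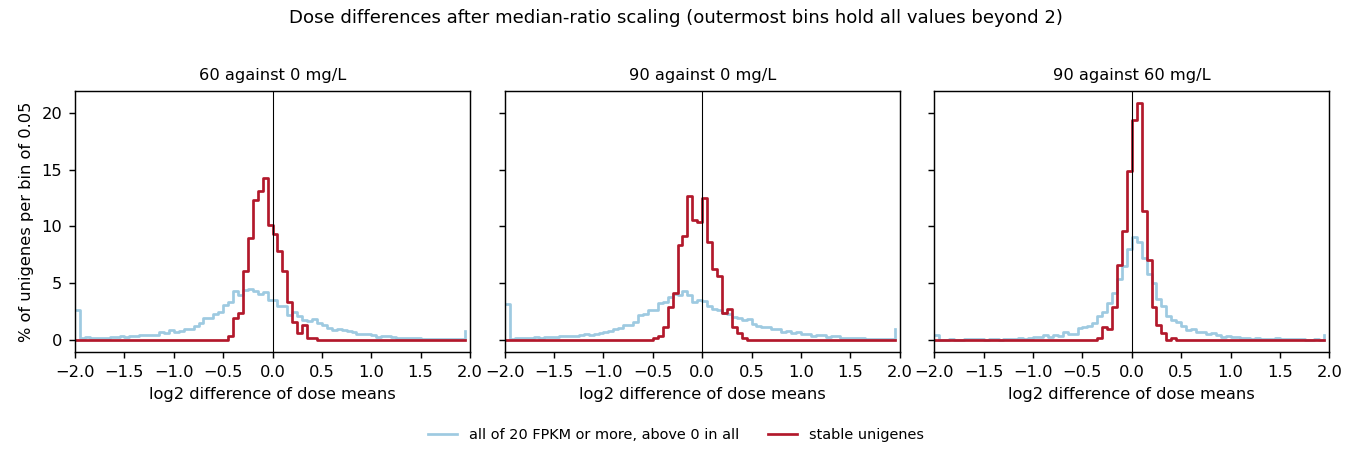
Histograms of the log2 difference of dose means after scaling, as percent of unigenes per bin of 0.05, for the 512 stable unigenes and for all 10622 candidates above 0 in all libraries. The stable unigenes form a narrow peak near 0 in each panel, and the candidates' wider peak is centred at -0.18, -0.15 and 0.039 from left to right.

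Small as they were, the differences were not evenly placed around 0. At 60 mg/L, 356 of the 512 members (69.5%) had a lower scaled mean than in controls, against 64.4% of the candidates, and at 90 mg/L 307 (60.0%), against 60.5%. The lowest of the 3 dose means was that at 60 mg/L, with both others above it, in 242 members. The means fell from dose to dose in 114, rose in 84 and peaked at 60 mg/L in 72. This placement depends on the scale. As deposited, the same members had a median log2 difference of 0.28 at 60 and 0.31 at 90 mg/L, and 501 and 503 of the 512 were higher than in controls. The median over the candidates moved in the same way, from -0.18 and -0.15 scaled to 0.18 and 0.21 as deposited. Between 90 and 60 mg/L, where size factors were alike, the members' median was 0.032 scaled and 0.034 as deposited. Without replicate 2 of 60 mg/L, which held the lowest scaled value in 169 members, this scaled median was 0.0025. The counts of patterns over the 3 doses are given for the members alone, and the part of that library in them was not tested.

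None of the 512 was called changed by a test across all unigenes. The test was limma on log2(scaled FPKM + 1), with Benjamini-Hochberg adjustment over 144298 unigenes with a scaled mean of at least 1 FPKM, and an adjusted p under 0.05 as the threshold. At 60 mg/L 0 members were called, beside 0.253% of all tested unigenes, and the smallest adjusted p of a member was 0.706. At 90 mg/L 0 were called, beside 0.295% (smallest adjusted p = 0.523). Between 90 and 60 mg/L 0 were called, beside 0.0353% (smallest adjusted p = 1), and the F test over the 3 doses called 0, beside 0.299% (smallest adjusted p = 0.786). At an unadjusted p under 0.05 limma gave 2 members at 60 mg/L, 2 at 90 mg/L, 0 between the doses and 0 in the F test, where all tested unigenes gave 6.76%, 7.67%, 3.34% and 6.42%. When replicate number entered as a block, the tested unigenes called at 60 and 90 mg/L and between the doses fell in number from 365, 425 and 51 to 112, 114 and 0, and the members called stayed at 0. The rule used the values of these libraries and so limits every difference between doses, and nothing is read from the absence of calls. The pooled spread also widened the members' errors, since their median residual SD was 0.147 on the log2 scale and the median moderated SD in the fit was 0.284. A p that misses the threshold does not show that a level was equal.

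Among the members, Cluster-47276.167443 had the largest upward difference from control at both doses, from 41.8, 38.1 and 38.6 scaled FPKM in the controls to 54.2, 56.7 and 47.6 at 60 mg/L and 50.2, 56.0 and 53.5 at 90 mg/L. All 6 exposed libraries lay above all controls, a 1.34-fold higher mean at 60 mg/L and 1.35-fold at 90 mg/L. Cluster-47276.172507 was next upward, with 341, 333 and 364 scaled FPKM in the controls, then 457, 459 and 450 at 60 mg/L and 493, 453 and 397 at 90 mg/L, again without overlap between controls and exposed libraries. As deposited, these differences were larger, at log2 0.77 and 0.79 for the former and 0.75 and 0.72 for the latter.

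In the other direction, Cluster-47276.168017 stood at 346, 347 and 288 scaled FPKM in the controls and at 244, 250 and 242 at 60 mg/L. At 90 mg/L it stood at 276, 292 and 309 scaled FPKM and overlapped the controls. Cluster-47276.181855 had 258, 262 and 223 scaled FPKM in the controls, then 183, 187 and 189 at 60 mg/L and 184, 182 and 188 at 90 mg/L, so the 6 exposed libraries were within 7 FPKM of each other and all below the controls. At 90 mg/L the largest difference downward was in Cluster-47276.169890, which stood at 596 ± 32.0, 516 ± 18.6 and 432 ± 17.8 scaled FPKM (SD, n = 3 each, in order of dose). Its scaled groups followed dose without overlap, while its deposited means were 523, 580 and 485 FPKM in order of dose. Cluster-47276.166382 stood at 30.5 ± 0.335, 24.6 ± 2.49 and 22.5 ± 0.939 scaled FPKM (SD, n = 3 each), with all exposed libraries below the controls. As deposited, the log2 differences of these 4 unigenes at 90 mg/L were between -0.11 and 0.20. Deposited values of Cluster-47276.181855, Cluster-47276.169890 and Cluster-47276.166382 overlapped the controls at both doses. Those of Cluster-47276.168017 overlapped the controls at 60 mg/L and lay above them at 90 mg/L.

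Groups without overlap were counted among the members and the candidates. At 60 mg/L all libraries lay above all controls in 16 members (3.12%), beside 4.73% of the candidates, and below them in 85 (16.6%), beside 13.3%. At 90 mg/L the counts were 32 above (6.25%), beside 7.18%, and 70 below (13.7%), beside 14.4%. Between 90 and 60 mg/L they were 30 above (5.86%), beside 3.38%, and 12 below (2.34%), beside 2.51%. All 6 exposed libraries lay above the controls in 12 members, beside 2.72% of the candidates, and below them in 44, beside 9.57%. The rule used these values, so nothing particular to the members is read from these shares. In 59 members the spread of the 3 dose means was wider than the widest range within any dose, and in 453 it was not. The median spread of dose means was 0.17 on the log2 scale and the median of the widest range within a dose 0.38. The first compares means of 3 libraries and the second is the largest of 3 ranges of single libraries. The second thus tends to be larger by construction, and nothing about dose is read from this comparison.

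The highest and lowest values were not spread evenly over the libraries. Control replicate 2 held the highest scaled value in 181 members (35.4%) and GBH 60 mg/L replicate 2 the lowest in 169 (33.0%). Each other library held the highest in 18 to 74 members and the lowest in 31 to 78. Among candidates taken from the 8 other libraries, control replicate 2 lay above all others in 30.6%. For GBH 60 mg/L replicate 2 the like share below all others was 23.6%. The rule used these values, so nothing particular to the members is read from these counts. The members' median deviation from their own 9-library mean was 0.12 in control replicate 2 and -0.11 in GBH 60 mg/L replicate 2 on the log2 scale. The other 7 libraries lay between -0.050 and 0.067. Both of these libraries are among the 3 libraries apart, and the members' second principal component (23.1% of their variance) placed those 3 at 1.12, 3.41 and 1.99 against -1.69 to -0.40 for the rest. On the first (29.0%), control replicate 2 lay at 4.25 and control replicate 1 at 2.06, with the other 7 between -1.86 and 0.15. The 3 libraries apart all lay above the other 6 in 25 members (4.88%), beside 13.5% of the candidates, and all below in 25 (4.88%), beside 14.3%. The rule limits how far any library can lie from the rest in a member, so nothing is read from these lower shares. Without the 3 libraries apart, with 2 libraries per dose, the members' median log2 difference was -0.0080 at 60 and -0.011 at 90 mg/L, and the part of these libraries in the dose differences was not tested.

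**Figure D4:**
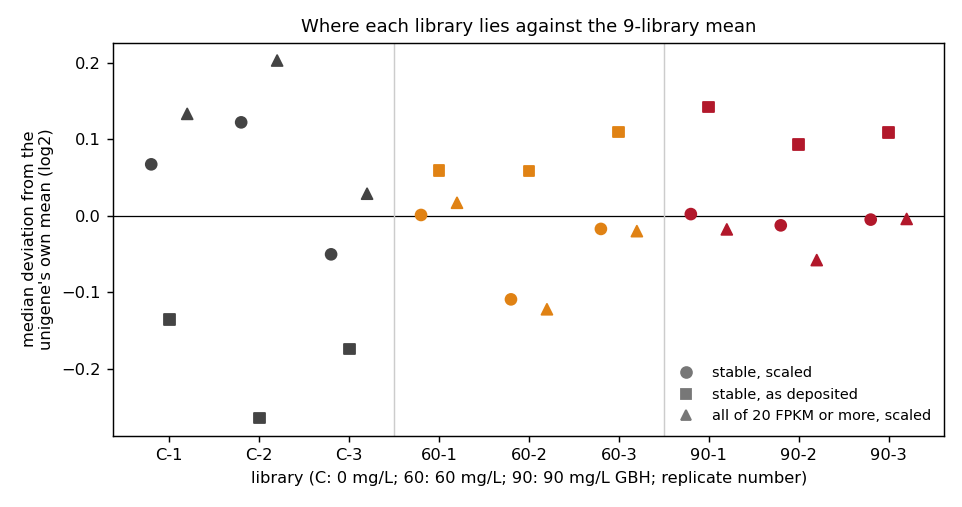
Median deviation of each library from the unigenes' own 9-library mean on the log2 scale, for the 512 stable unigenes after scaling (circles) and as deposited (squares), and for all candidates above 0 in all libraries after scaling (triangles), coloured by dose. As deposited the 3 controls lie at -0.26 to -0.14 and the 6 exposed libraries at 0.058 to 0.14, while after scaling control replicate 2 lies highest and GBH 60 mg/L replicate 2 lowest.

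How many unigenes the rule chooses depends on the libraries used. A unigene within 1.5-fold over all 9 libraries is also within it over any part of them. Nearly the same unigenes, 508 to 514 in number, therefore held each time, here and where 3 libraries were left out. A share that held thus mainly restates how many were chosen, and it does not test how steadiness carries to new libraries. The rule was applied to 8 libraries, with the size factors kept, and the unigenes so chosen were then looked up in the remaining library. With GBH 60 mg/L replicate 3 left out, 556 unigenes were chosen and 92.1% of them were within 1.5-fold over all 9. Shares were 82.0% for control replicate 1, 86.2% for control replicate 3, 87.5% for GBH 60 mg/L replicate 1, 89.5% for GBH 90 mg/L replicate 1, 81.9% for GBH 90 mg/L replicate 2 and 91.1% for GBH 90 mg/L replicate 3. Leaving out GBH 60 mg/L replicate 2 gave 796 unigenes, of which 64.3% held, and leaving out control replicate 2 gave 1212, of which 42.0% held. In control replicate 2, those 1212 had a median log2 difference of 0.38 from the other 8 libraries, beside 0.15 over the candidates. In 64.1% of the 1212 the value was higher there than in any other library, beside 30.6% of the candidates. A narrow range in the libraries used for choosing raises this share by construction, so nothing is read from the comparison. Of the 1212, 87.2% were within 2-fold over all 9 libraries.

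Leaving out all 3 libraries of a dose gave lower shares than leaving out most of the single libraries. With 6 libraries used for choosing in place of 8, more unigenes can pass, so this drop is not read as an effect of dose. Unigenes steady in controls and at 60 mg/L numbered 826, of which 61.7% were within 1.5-fold once the 90 mg/L libraries were added, and their median log2 difference at 90 mg/L was -0.016 (10th to 90th percentile -0.25 to 0.22). In 2.06% of them all 90 mg/L libraries lay above the other 6 and in 3.03% below, beside 0.776% and 1.18% of the candidates. A narrow range in the libraries used for choosing raises such shares by construction, so nothing is read from the comparison with candidates, here or for the controls. Those steady in controls and at 90 mg/L numbered 1005, of which 51.1% held at 60 mg/L, with a median log2 difference of -0.095 there. Those steady in the 6 exposed libraries numbered 2034, of which 24.98% held in the controls. Their controls were higher by a median of 0.16 on the log2 scale, all above the exposed libraries in 17.5% and all below in 6.10%, beside 7.58% and 3.46% of the candidates. The candidates' median log2 differences for the same doses left out were -0.083 at 90 mg/L, -0.12 at 60 mg/L and 0.11 in the controls. Leaving out the 3 libraries apart, 1 of each dose, gave 2780 unigenes, of which 18.3% held when these were added. More unigenes were thus steady without those 3 libraries than without any dose, and their part in the counts for single doses was not tested.

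**Figure D5:**
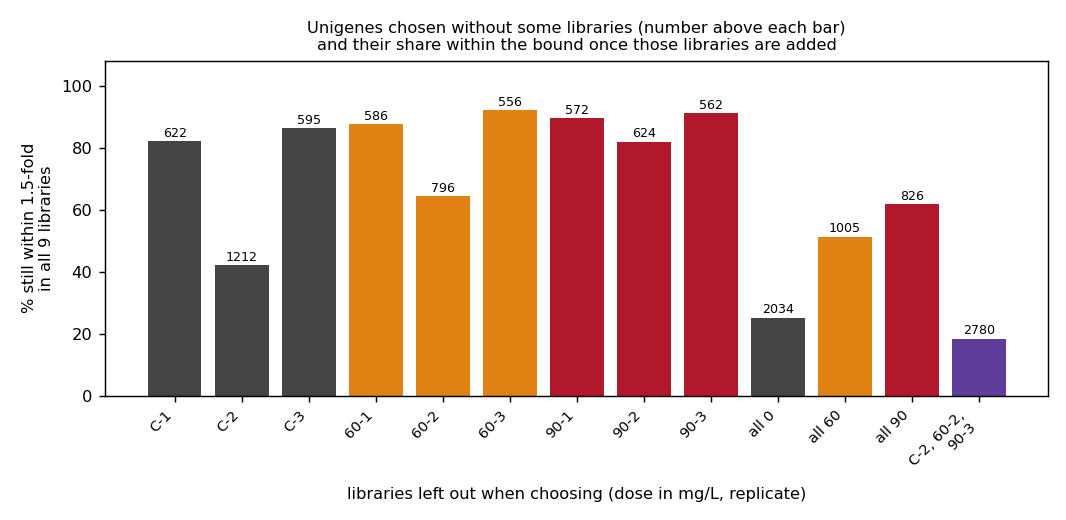
Bars give, for each library, dose or set of libraries left out when unigenes were chosen, the percent of the chosen unigenes still within 1.5-fold in all 9 libraries, with the number chosen above each bar. Bars are lowest for control replicate 2 among single libraries (42.0%), for the controls among doses (24.98%) and for the 3 libraries apart (18.3%).

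Membership also depended on the scale. On the deposited FPKM, 239 of the 512 (46.7%) stayed within 1.5-fold, with a median ratio of 1.53 and a highest of 2.18. Cluster-47276.170340, steadiest after scaling, had deposited values of 46.19, 38.66 and 45.86 FPKM in the controls and 52.07 to 59.91 FPKM in the exposed libraries, which did not overlap. The reverse held for Cluster-47276.179438, just inside the bound after scaling with 66.4, 73.2 and 61.5 scaled FPKM in the controls and 48.8 to 53.6 in the exposed libraries. Its deposited values were 59.74, 57.94 and 58.38 FPKM in the controls, 57.72, 56.71 and 58.86 FPKM at 60 mg/L and 60.79, 59.21 and 59.97 FPKM at 90 mg/L, a ratio of 1.07, the lowest of the 512. A unigene can thus be level on 1 scale and ordered by exposure on the other, and the table alone does not say which scale follows the amount of RNA per cell.

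A smaller core stayed within the bound under each of the 5 scalings tried. With the 4 other scalings tried (deposited FPKM, equal column sums, quantile normalization and size factors from unigenes whose mean reached 20 FPKM), 166 of the 512 (32.4%) stayed within 1.5-fold in each, a count made after the data had been seen. Their scaled means ran from 20.2 to 1227 FPKM with a median of 51.2. Their median log2 difference at 60 mg/L was -0.19 under median-ratio scaling, 0.16 as deposited, 0.21 with equal sums, 0.030 under quantile normalization and -0.035 with size factors from the more abundant unigenes. At 90 mg/L the same values were -0.16, 0.20, 0.22, 0.033 and -0.020. The sign of these medians therefore turned with the scale. Cluster-47276.179438, Cluster-47276.156542, Cluster-47276.168017, Cluster-47276.181855, Cluster-47276.169890 and Cluster-47276.166382 belonged to this core, and the 3 members of lowest ratio did not. The core was picked from these values for staying within the bound on scales that place controls and exposed libraries differently. Nothing is therefore read from the turning sign or from which members the core holds.

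The ratio of 1 unigene to another within a library does not change with a common factor. For each member the SD over the 9 libraries of its log2 ratio to every other member was averaged, a measure like that used to rank reference genes. It ran from 0.16 to 0.30 with a median of 0.20. The other 10110 candidates above 0 in all libraries had a median of 0.56 against the same 512 members, and 24 of them lay below the members' median. Cluster-47276.183044, the lowest at 0.156, had a scaled mean of 69.5 FPKM and a ratio of 1.196, and was named after its values were seen. Cluster-47276.170340 stood at 0.169, rank 28 of 512, and Cluster-47276.167443, the member that was furthest above its controls, had the highest value at 0.298. Since the members were chosen for moving little, these values describe the group and do not test it.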

How the data were processed

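The authors deposited 1 table of FPKM per unigene and library, as the labels name it, from poly-A selected RNA sequenced as paired ends per the labels' protocols. How the unigenes were assembled, aligned to, counted and filtered is not given in the sources used here, nor are tool versions. The values come without counts or lengths, so the sampling error of a value is unknown. Each column name was the title of 1 sample. Column sums were 2739365 to 3005630 FPKM. The highest share of equal values between any pair of libraries, among unigenes above 0 in both, was 3.00%.

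Size factors used the 89518 unigenes above 0 in all libraries. Differences of members are means of log2 scaled FPKM without a pseudocount. limma 3.58.1 (R 4.3.3, with data.table of version 1.17.8) was fitted to log2(scaled FPKM + 1) of all 9 libraries, with 1 mean per dose, a trend and 6 residual degrees of freedom. The fit and the rule were run on simulated data to check the code. Changes simulated for the fit were larger than any difference among the members, and level unigenes simulated for the rule varied less than members do. These runs therefore do not show how small differences like those of the members would be recovered. Tables used pandas 2.3.3 and numpy 2.4.6, figures matplotlib 3.10.9. Members, lists and alternatives were chosen with earlier results of these data known. The gene lists and markers drawn up for named genes could not be used. Unigenes named are the 3 of lowest ratio, 3 of highest, 1 of median and 2 of lowest mean, 2 on either side of the bound, and 2 with the largest difference each way per dose against control. Replicate numbers were checked by correlating deviations from the dose means over tested unigenes: libraries of equal number gave 0.107, 0.326 and 0.114 between 60 and 0 mg/L, each above the bound of 0.1 set for taking numbers as pairs. Between 60 and 0 mg/L, libraries of unequal number gave as much in 1 case (0.135 for control replicate 3 and replicate 1 of 60 mg/L). Replicate 3 of 90 mg/L gave 0.253 with control replicate 2 and 0.233 with replicate 2 of 60 mg/L. These are the 3 libraries apart, which also hold the pair at 0.326. Control replicate 3 and replicate 1 of 90 mg/L gave 0.129. What the numbers stand for is not labelled.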

Additional observations from a re-analysis of the deposited data

How the results depend on the processing

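The count of 512 became 92, 236, 870 and 2397 at bounds of 1.3, 1.4, 1.6 and 2, and 789 and 238 at minimum means of 10 and 50 FPKM. It was 819 on deposited FPKM, 825 with equal column sums, 765 with quantile normalization and 842 with size factors from unigenes of at least 20 FPKM. Of these, 239, 185, 336 and 400 were shared with the 512, in the same order. The count was 166 within the bound under all 5 scalings, an alternative chosen after seeing the data. It was 2034, 1005 and 826 without the controls, the 60 mg/L and the 90 mg/L libraries, 2780 without the 3 libraries apart, and 556 to 1212 without single libraries (the highest for control replicate 2, then 796 for replicate 2 of 60 mg/L). The members' median log2 difference at 60 mg/L turned from -0.077 to 0.28 on deposited FPKM, 0.33 with equal sums, 0.13 with quantile normalization and 0.080 with size factors from unigenes of at least 20 FPKM, and was -0.0080 without the 3 libraries apart. At 90 mg/L the same 4 scalings gave 0.31, 0.33, 0.15 and 0.090 in place of -0.050. Without single libraries the medians were -0.13 to -0.048, -0.094 to -0.015 and 0.0025 to 0.052 for 60 and 90 mg/L against control and for 90 against 60 mg/L. The other alternatives moved these medians by less than the SD between libraries.

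limma called 0 members in each of the 20 alternatives of the 3 comparisons between doses and the 19 of the F test, with a smallest adjusted p of 0.246 at 60 mg/L, 0.131 at 90 mg/L, 0.806 between the doses and 0.218 in the F test. The rule chose the members for small differences among these libraries, so nothing is read from the absence of calls in any alternative. At an unadjusted p under 0.05, limma gave up to 50, 77, 1 and 29 of the 512 members in the same order. The 50, 77 and 29 came with equal column sums, beside 11693, 13328 and 10952 of 147650 tested unigenes. All of the 50 and the 77 were higher than in controls on that scale. The 1 came without the 3 libraries apart, beside 7944 of 139075 tested unigenes. Calls over all unigenes ranged from 112 to 549, 114 to 804 and 0 to 109, in place of 365, 425 and 51. The replicate block left the medians at -0.077, -0.050 and 0.032 and gave 112, 114 and 0 calls over all unigenes and 0 among members. For 90 and 0 mg/L the deviations of equally numbered libraries correlated at 0.109, -0.062 and -0.18, and for 90 and 60 mg/L at 0.104, -0.071 and -0.11, so these numbers are not taken to pair libraries.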
